A study of Mus musculus with 24 samples.

Results

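The kynurenine pathway and the enzymes that finish the synthesis of nicotinamide adenine dinucleotide (NAD) are described here through 10 genes, out of 55416 gene IDs in the deposited kidney table. The members, Afmid, Kmo, Kynu, Haao, Acmsd, Qprt, Naprt, Nampt, Nadsyn1 and Nmnat1, were taken by gene symbol for their place in the pathway. They were chosen with earlier results of these data known. All 10 passed the filter on low values. RNA was sequenced from 24 mouse kidneys in 4 groups of 6, which cross the operation (sham, or an ischemia reperfusion injury, B-IRI in the labels) with the Polg genotype (Polg+/+, or PolgD257A, a proofreading-deficient form of the mitochondrial DNA polymerase). The Polg+/+ animals were littermates of the PolgD257A animals, and the study asked what mutations of mitochondrial DNA add to the injury. The sources used here do not give the sex, the age, the strain, the time from surgery to sampling, or whether PolgD257A was carried on a single copy or on both.

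Tryptophan that is not used for protein is degraded through kynurenine, and in kidney and liver part of it is turned into NAD. Afmid releases kynurenine, Kmo hydroxylates it, Kynu cleaves the product to hydroxyanthranilate, and Haao opens the ring of hydroxyanthranilate to an unstable semialdehyde. Acmsd removes this semialdehyde towards oxidation, whereas the part that closes by itself to quinolinate is taken by Qprt into NAD synthesis. Naprt starts from nicotinic acid and Nampt from nicotinamide, Nmnat1 attaches the adenylate group in the nucleus, and Nadsyn1 amidates the acid form to NAD.

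Reads assigned to genes ranged from 16689284 to 26341004 per library, and the sham Polg+/+ libraries were the shallowest (16689284 to 19737994). Values are the authors' normalized counts, tests are limma on log2(normalized count + 1) with Benjamini-Hochberg adjustment over 17430 genes at 0.05, and a change in log2 is given with its standard error. Polg itself was at 1060 ± 24.3 normalized counts (mean ± SD, n = 6) in sham Polg+/+ and 1046 ± 52.8 in sham PolgD257A, and a gene count does not read the D257A base change. Havcr1, a marker of injured tubules, separated the surgeries, with 112 to 198 normalized counts in the 12 sham libraries, and after B-IRI 5441 to 24890 in Polg+/+ and 25920 to 36060 in PolgD257A. Sham Polg+/+ replicate 6 stood apart from its group for several members, and B-IRI PolgD257A replicate 2 was the highest of its group for Acmsd. All 25 proximal tubule markers were detected in every group. The 3 hepatocyte markers were detected in every group too, so detection alone does not identify the tissue. In bulk tissue a lower value from fewer cells of a type and one from less RNA per cell cannot be told apart.

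Per kilobase of annotated exon, the most abundant members in sham Polg+/+ kidneys were Acmsd (1147 normalized counts per kilobase), Haao (985), Qprt (804), Nampt (765) and Kmo (656). Naprt (469), Nadsyn1 (249), Afmid (157) and Nmnat1 (129) lay lower, and Kynu was the least abundant at 27.5. After B-IRI in PolgD257A the same per-kilobase scale ran from Nampt (724) and Qprt (552) through Acmsd (417), Haao (371), Naprt (359), Nadsyn1 (205), Kmo (197), Nmnat1 (120) and Afmid (53.0) to Kynu (30.4). RefSeq windows of the 250 bases upstream of the RefSeq start (build GRCm38.p6) were examined for 7 of the 10 members. Those of Nampt, Kmo and Haao lie inside the span that GENCODE gives their gene. That of Nampt is printed because this gene leads the members per kilobase after B-IRI in PolgD257A and because its window holds no annotated exon. It reads 5′ to 3′ on the plus strand, in lower case with matches to the searched motifs in capitals.
Nampt, chr12:32820085-32820334: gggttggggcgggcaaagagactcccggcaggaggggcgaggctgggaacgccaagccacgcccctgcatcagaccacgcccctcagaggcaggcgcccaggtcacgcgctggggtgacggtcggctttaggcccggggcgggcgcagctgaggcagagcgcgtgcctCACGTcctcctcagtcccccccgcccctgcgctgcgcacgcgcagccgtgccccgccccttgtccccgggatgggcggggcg
The Nampt window was 75.6% G or C with 27 CpG pairs, against a median of 52.4% and 6 over 32817 such windows. Among the other windows examined the count of CpG pairs was 5 for Kmo, 6 for Haao, 6 for Qprt, 15 for Afmid, 23 for Nadsyn1, and 23 and 24 for the overlapping windows of Nmnat1. Much of this sequence is exonic. Exons of the gene itself cover all 250 bases for Haao and 197 each for Kmo and Qprt. Exons of Tk1 cover 205 bases for Afmid, and exons of Lzic cover 174 and 212 for Nmnat1. The capitals in the Nampt window mark ACGTG, the core of the hypoxia response element, read on the opposite strand at positions -82 to -78 from the start. ACGTG also occurred in the Afmid window and in 16.6% of all windows. The HNF1 motif GTTAAT was found for Haao and in 6.44% of all windows. None of the windows examined held the HNF4 core CAAAGTCCA (0.384% of all windows), the E-box CACGTG, which contains ACGTG (6.02%), the ATF4 composite site TGATGCAAT (0.168%), the AP-1 site TGACTCA (4.46%) or the TATA box TATAAA (12.4%), on either strand. These matches describe letters and say nothing on binding.

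After B-IRI the kynurenine enzymes and the later NAD enzymes changed by different amounts. In Polg+/+ kidneys 6 of the 10 members fell and 1, Kynu, rose. The background share over all genes tested was 19.8% lower and 21.4% higher. In PolgD257A kidneys 8 of the 10 fell, against a background of 30.3% lower, and none rose, against 30.2% higher. No member rose there at an unadjusted p under 0.05, or by edgeR or DESeq2. The median change of the 10 members was -0.21 in Polg+/+ and -0.47 in PolgD257A, beside -0.0082 and -0.0011 over all genes. For the 5 genes from Afmid to Acmsd the median was -0.65 and -1.48, and for the 5 genes from Qprt to Nmnat1 it was -0.15 and -0.31. All 6 libraries of one group lay below all 6 of the other for 2 members in Polg+/+ (Kmo and Qprt), where 8.7% of all genes did so, and for 6 members in PolgD257A (Afmid, Haao, Kmo, Nadsyn1, Naprt and Qprt), where 17.5% did. Such separation upwards, seen in 11.5% and 18.8% of all genes, occurred for no member.

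**Figure D1:**
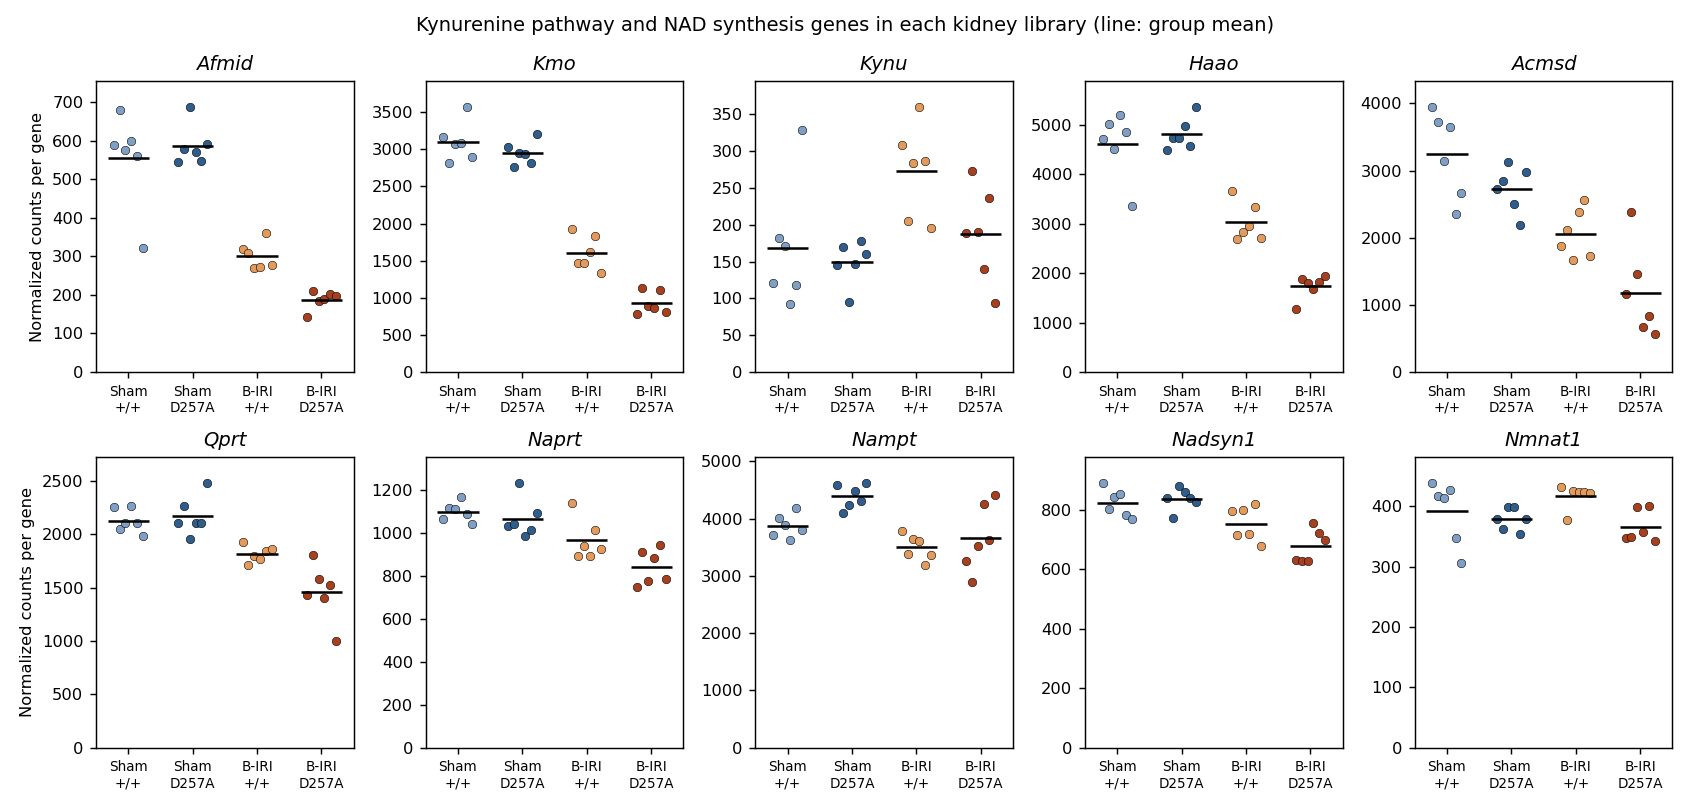
Normalized counts of the 10 genes (vertical axes from 0, a scale for each gene) in the 24 libraries by group, with 1 point per library and a line at the group mean. Kmo, Haao and Afmid step down from sham to B-IRI Polg+/+ and again to B-IRI PolgD257A, while Nmnat1 stays between 305 and 438 in every group.

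Kmo, the monooxygenase of the outer mitochondrial membrane that commits kynurenine to the NAD branch, fell furthest among the members when both genotypes are averaged. In Polg+/+ it was at 3100 ± 261 normalized counts in sham (lowest 2821, median 3080, highest 3563) and 1609 ± 230 after B-IRI (1338, 1545 and 1926). In PolgD257A it was at 2946 ± 159 in sham (2756, 2939 and 3201) and 931 ± 148 after B-IRI (783, 881 and 1129). The 4 ranges leave no overlap between sham and B-IRI in either genotype, nor between the genotypes after B-IRI, whereas the sham ranges overlap. The change was -0.95 ± 0.09 log2 in Polg+/+ (adjusted p = 4.9e-09) and -1.67 ± 0.09 in PolgD257A (adjusted p = 3e-14), which left 51.6% and 31.4% of the sham level. Kmo lies on chromosome 1 (175620381 to 175662116, plus strand, GRCm38) and crosses Fh1 on the opposite strand without sharing exons.

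Haao, the dioxygenase that makes the precursor of quinolinate, was at 4612 ± 656 normalized counts in sham Polg+/+ (lowest 3365, median 4791, highest 5194) and 3035 ± 385 after B-IRI (2698, 2896 and 3660). Haao lies on chromosome 17 (83831156 to 83847963, minus strand, GRCm38). In PolgD257A it went from 4813 ± 314 (4489, 4736 and 5356) to 1736 ± 239 (1285, 1818 and 1950). In Polg+/+ the ranges overlapped through sham replicate 6 alone, the lowest sham library, and in PolgD257A they were apart. Without that library the change was -0.69 log2 in Polg+/+. Haao fell over all libraries by 0.60 ± 0.10 log2 in Polg+/+ (adjusted p = 2.4e-05) and by 1.48 ± 0.10 in PolgD257A (adjusted p = 1.4e-12).

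Afmid, the formamidase at the head of the members, behaved much like Haao in the order of its groups. Sham Polg+/+ libraries held 554 ± 121 normalized counts (lowest 323, median 583, highest 679), B-IRI Polg+/+ 302 ± 35.7 (269, 294 and 362), sham PolgD257A 586 ± 52.2 (544, 574 and 686) and B-IRI PolgD257A 188 ± 24.1 (142, 192 and 210). Sham Polg+/+ replicate 6, at 323, was again the only sham library within the B-IRI range of its genotype. Without it the change was -0.99 log2 in Polg+/+. Afmid fell over all libraries by 0.85 ± 0.13 log2 in Polg+/+ (adjusted p = 6.1e-06) and by 1.64 ± 0.13 in PolgD257A (adjusted p = 1.8e-11). Afmid (chromosome 11, 117825924 to 117839908, plus strand) shares exon sequence with Tk1 on the opposite strand and with Gm20708 on its own, and the sources used here do not say whether the counting used strand, so part of its count could belong to them.

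Acmsd, the decarboxylase that draws the semialdehyde away from NAD, varied most among libraries after B-IRI in PolgD257A. It stood at 3248 ± 633 normalized counts in sham Polg+/+ (lowest 2361, median 3397, highest 3940), 2057 ± 361 in B-IRI Polg+/+ (1674, 1996 and 2561) and 2728 ± 339 in sham PolgD257A (2196, 2782 and 3131). In B-IRI PolgD257A the mean was 1180 ± 677, with 1 library, replicate 2, at 2386 and the others from 566 to 1458. Replicate 2 lay inside the sham PolgD257A range, and the other 5 libraries lay below it. Acmsd fell by 0.65 ± 0.23 log2 in Polg+/+ (adjusted p = 0.0224) and by 1.38 ± 0.23 in PolgD257A (adjusted p = 8.2e-06). The fall in Polg+/+ missed the threshold without sham Polg+/+ replicate 1 or without B-IRI Polg+/+ replicate 3 (adjusted p = 0.0527 for each). Acmsd (chromosome 1, 127729413 to 127767978, plus strand) shares exon sequence with 2900009J06Rik on the opposite strand.

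Kynu, the kynureninase between Kmo and Haao (chromosome 2, 43555329 to 43682715, plus strand), did not fall with its neighbours. In Polg+/+ it rose from 169 ± 85.2 normalized counts in sham (lowest 93.1, median 146, highest 328) to 273 ± 62.8 after B-IRI (195, 285 and 359), by 0.78 ± 0.25 log2 (adjusted p = 0.0138). In PolgD257A it was at 149 ± 29.7 in sham (94.7, 154 and 178) and 187 ± 64.5 after B-IRI (93.6, 189 and 273), a difference of 0.27 ± 0.25 log2 (adjusted p = 0.362). In Polg+/+ the sham libraries reached the B-IRI range only through replicate 6, at 328, and in PolgD257A the sham and B-IRI ranges overlap. Without that library the rise in Polg+/+ was 1.00 log2, and over all libraries left out in turn its adjusted p ranged from 0.000956 to 0.0439. Kynu thus passed the test upwards in Polg+/+ while Afmid, Kmo, Haao and Acmsd passed it downwards.

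**Figure D2:**
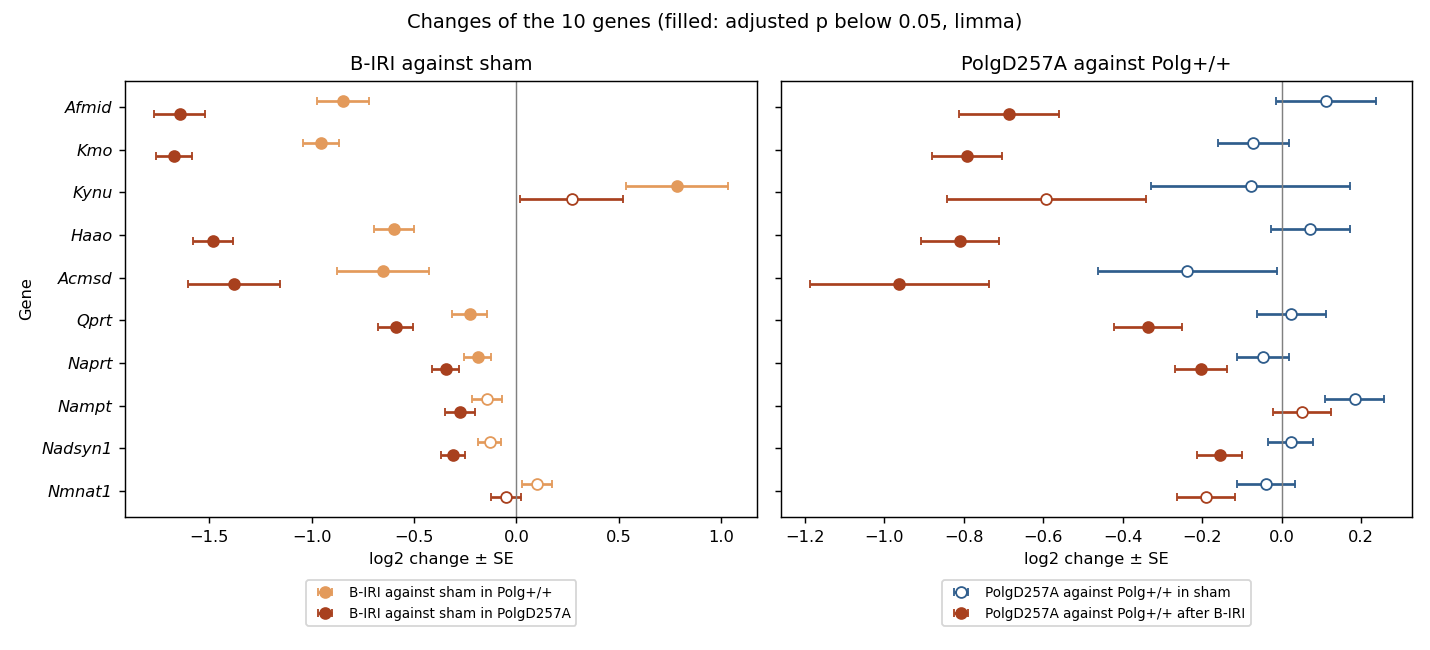
log2 change with its standard error (horizontal axes) for the 10 genes in pathway order, for B-IRI against sham in each genotype (left) and for PolgD257A against Polg+/+ under each surgery (right). Filled points passed limma at an adjusted p under 0.05. In the left panel Afmid, Kmo, Haao and Acmsd lie farthest left and Kynu lies right of 0, and no point is filled for the genotypes in sham.

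The enzymes that build NAD from quinolinate, nicotinic acid and nicotinamide had smaller changes. Qprt, which turns quinolinate into nicotinic acid mononucleotide, was at 2126 ± 112 normalized counts in sham Polg+/+ (lowest 1982, median 2105, highest 2262) and 1815 ± 74.6 after B-IRI (1709, 1818 and 1923). In PolgD257A it was at 2167 ± 181 (1953, 2104 and 2477) and 1459 ± 265 (1003, 1480 and 1805). Qprt lies on chromosome 7 (127107114 to 127122226, minus strand), and no B-IRI library of either genotype reached the sham range. Qprt fell by 0.23 ± 0.09 log2 in Polg+/+ (adjusted p = 0.0364) and by 0.59 ± 0.09 in PolgD257A (adjusted p = 1.6e-06). The Polg+/+ call is marginal, since it was lost when any of 7 single libraries was left out (sham Polg+/+ replicates 1, 3, 4 and 5, and B-IRI Polg+/+ replicates 2, 3 and 4), with an adjusted p of at most 0.0734, and without a filter (0.0668).

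Naprt, the enzyme that uses nicotinic acid, was at 1100 ± 44.1 and 968 ± 94.9 normalized counts in sham and B-IRI Polg+/+, and at 1067 ± 88.5 and 842 ± 81.7 in sham and B-IRI PolgD257A. The change was -0.19 ± 0.07 log2 (adjusted p = 0.0236) and -0.34 ± 0.07 (adjusted p = 6.4e-05). Without sham Polg+/+ replicate 4, B-IRI Polg+/+ replicate 2 or B-IRI Polg+/+ replicate 4 the first of these calls was lost (adjusted p up to 0.059). Naprt (chromosome 15, 75890956 to 75894481, minus strand) shares exon sequence with Eef1d on the same strand. For Naprt and Nadsyn1 (chromosome 7, 143795584 to 143822849, minus strand) sham and B-IRI libraries overlapped in Polg+/+ and not in PolgD257A. Nadsyn1, the synthetase that completes the route from quinolinate and nicotinic acid, was at 824 ± 46.0 and 754 ± 57.3 in Polg+/+ (-0.13 ± 0.06 log2, adjusted p = 0.0697, or 0.0394 to 0.18 with 1 library left out), and it fell by 0.31 ± 0.06 in PolgD257A (adjusted p = 4e-05), from 837 ± 36.2 to 677 ± 55.7. In Polg+/+ Nadsyn1 passed after quantile normalization (adjusted p = 0.0401), with library weights (0.0408), after thinning (0.0468), and without sham replicate 6 (0.0471) or B-IRI replicate 5 (0.0394).

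Nampt, the enzyme that opens the salvage of nicotinamide, changed by small amounts. Nampt lies on chromosome 12 (32819545 to 32853349, plus strand). It was at 3865 ± 206 normalized counts in sham Polg+/+ (lowest 3619, median 3839, highest 4185) and 3496 ± 217 after B-IRI (3197, 3493 and 3781), a change of -0.15 ± 0.07 log2 that did not pass (adjusted p = 0.116) except with library weights (0.0427) or only the libraries compared (0.0274). In PolgD257A it went from 4390 ± 209 (4097, 4396 and 4617) to 3658 ± 583 (2890, 3568 and 4416). The B-IRI PolgD257A libraries spread widely, and replicates 4 and 6 lay within the sham range. It fell by 0.28 ± 0.07 log2 in PolgD257A with the authors' scaling (adjusted p = 0.00198), a call that was lost after quantile normalization (-0.14, adjusted p = 0.1). Nmnat1, the nuclear enzyme that forms the dinucleotide, did not pass in either genotype, with 391 ± 52.8 and 417 ± 20.1 normalized counts in sham and B-IRI Polg+/+ and 378 ± 18.6 and 366 ± 26.6 in PolgD257A. Its changes were 0.10 ± 0.07 log2 (adjusted p = 0.281) and -0.05 ± 0.07 (adjusted p = 0.577), and its locus is on chromosome 4 (149467572 to 149485202, minus strand).

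In sham kidneys the genotypes could not be separated on any member. None of the 10 was called higher or lower, against background shares of 0.0861% higher and 0.0402% lower, and neither edgeR nor DESeq2 called any. At an unadjusted p under 0.05 only Nampt was higher and no member was lower. Nampt was 0.18 ± 0.07 log2 higher in PolgD257A (adjusted p = 0.521), with 4097 to 4617 normalized counts against 3619 to 4185, and the ranges overlap. The median difference of the members was -0.0074 log2, beside 0.007 over all genes.

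After B-IRI the genotypes did differ. Of the members 7 were lower in PolgD257A than in Polg+/+ (Afmid, Kmo, Haao, Acmsd, Qprt, Naprt and Nadsyn1), against a background of 15.2% lower, and none was higher, against 14.3%. edgeR and DESeq2 each called 8 lower, with Nmnat1 as the eighth. No member was higher at an unadjusted p under 0.05 or by edgeR or DESeq2. The median over the members was -0.46 log2, beside 0.0093 over all genes. Haao was lower by -0.81 ± 0.10 log2 (adjusted p = 1.8e-06), Kmo by -0.79 ± 0.09 (adjusted p = 8.5e-07) and Afmid by -0.69 ± 0.13 (adjusted p = 0.000172), and for these 3 no library of one genotype reached the range of the other. Such separation was found downwards in 5.94% of all genes and upwards, where no member showed it, in 4.65%. The difference for Acmsd was -0.96 ± 0.23 log2 (adjusted p = 0.00195), with the ranges overlapping through B-IRI PolgD257A replicate 2.

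The later enzymes differed less between the genotypes after B-IRI. The difference was -0.34 ± 0.09 log2 for Qprt (adjusted p = 0.00416), -0.20 ± 0.07 for Naprt (adjusted p = 0.0213) and -0.16 ± 0.06 for Nadsyn1 (adjusted p = 0.0403). The Nadsyn1 call was lost when any of 6 single libraries was left out (B-IRI Polg+/+ replicates 1, 3 and 5, and B-IRI PolgD257A replicates 1, 2 and 3, adjusted p up to 0.108), and also without a filter (0.0752), with library weights (0.0932), with only the libraries compared (0.0917) and after thinning to equal depth (0.0599). The Naprt call was lost without replicate 1 or 5 of B-IRI Polg+/+, or without replicate 1 of B-IRI PolgD257A (up to 0.0757), and with only the libraries compared (0.0565). Kynu (-0.59 ± 0.25, adjusted p = 0.0767) and Nmnat1 (-0.19 ± 0.07, adjusted p = 0.0518) did not pass in limma with all libraries. Nmnat1 passed with edgeR (adjusted p = 0.0362), DESeq2 (0.0312), TMM scaling (0.0442), quantile normalization (0.0191), a filter of 50 (0.0423), library weights (0.0499), only the libraries compared (0.0297) and thinning (0.0477). Kynu passed when sham Polg+/+ replicate 6 was left out (adjusted p = 0.039), when replicate 2 of B-IRI PolgD257A was (0.0346), and with library weights (0.035), and Nmnat1 passed without any 1 of 6 libraries (sham Polg+/+ replicates 1, 5 and 6, B-IRI Polg+/+ replicate 2, and B-IRI PolgD257A replicates 3 and 5), down to 0.0183. Nampt differed by 0.05 ± 0.07 (adjusted p = 0.641). The authors' deposited table of their own genotype comparison after B-IRI, which holds 1401 selected genes, contains 4 of the 10 members. Its log2 changes were -0.78 for Haao, -0.77 for Kmo, -0.64 for Afmid and -0.60 for Acmsd. They come from the authors' own fit, and the limma changes were larger in size for all 4, most for Acmsd (-0.96). The table holds selected genes only, so no share over all genes they tested can be set beside this count.

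The surgery by genotype interaction asks whether B-IRI lowered a gene more in PolgD257A than in Polg+/+. It was negative and passed for 4 members, Haao (-0.88 ± 0.14 log2, adjusted p = 0.000211), Afmid (-0.80 ± 0.18, adjusted p = 0.00328), Kmo (-0.72 ± 0.13, adjusted p = 0.000536) and Qprt (-0.36 ± 0.12, adjusted p = 0.0436), against a background of 9.08% lower. It was positive for none, against 6.87% higher, and at an unadjusted p under 0.05 or by edgeR or DESeq2 no member was positive either. The Qprt interaction was lost when any of 15 single libraries was left out (adjusted p up to 0.0786). It was also lost with edgeR (adjusted p = 0.0502), without a filter (0.0819), after quantile normalization (0.075) and after thinning (0.0591). These libraries were sham Polg+/+ replicates 2, 3, 5 and 6, sham PolgD257A replicates 2, 4, 5 and 6, B-IRI Polg+/+ replicates 1, 3, 4, 5 and 6, and B-IRI PolgD257A replicates 1 and 4. For Acmsd the interaction was of like size but less precise (-0.73 ± 0.32, adjusted p = 0.127), and without B-IRI PolgD257A replicate 2 it passed (-0.96, adjusted p = 0.00909), as it did with library weights (-0.87, adjusted p = 0.0305). Kynu (-0.51 ± 0.35, adjusted p = 0.357), Nadsyn1 (-0.18 ± 0.08, adjusted p = 0.137), Naprt (-0.16 ± 0.09, adjusted p = 0.281), Nmnat1 (-0.15 ± 0.10, adjusted p = 0.355) and Nampt (-0.13 ± 0.10, adjusted p = 0.429) did not pass. The median interaction was -0.73 for the 5 genes from Afmid to Acmsd and -0.16 for the 5 from Qprt to Nmnat1.

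Markers of the proximal tubule, the segment in which many of these enzymes are made, moved in the same direction. Of 25 such markers 19 were lower and 1 higher after B-IRI in Polg+/+, 24 were lower in PolgD257A, 22 were lower in PolgD257A than in Polg+/+ after B-IRI, and none was called between the genotypes in sham. Their summed level ranged in sham from 749090 to 928010 normalized counts (Polg+/+) and 855230 to 999490 (PolgD257A), and after B-IRI from 478700 to 637140 (Polg+/+) and 301380 to 433070 (PolgD257A), with no marker at 0. All 10 tubule injury markers were higher after B-IRI in both genotypes, and so were 5 of 6 fibroblast markers, while the other, Dcn, fell by 0.57 and 0.53 log2. Of 10 macrophage and monocyte markers, 4 were higher and 1 lower after B-IRI in Polg+/+, and 5 higher and 1 lower in PolgD257A. Cd68 was 4.24-fold and 5.33-fold higher and Itgam 2.63-fold and 5.11-fold, while Csf1r fell by 0.74 and 1.15 log2, each without overlap of the groups, and the sums of the 10 markers overlapped (2499.5 to 4646.8 normalized counts). The 6 neutrophil markers summed to 16.0 to 53.9 in sham and 38.9 to 505 after B-IRI. The 3 hepatocyte markers, which matter because liver carries the same pathway, summed to 661 to 3709 normalized counts in all libraries and were lowest in B-IRI PolgD257A. Of the loop of Henle markers, 1 of 5 was higher in Polg+/+ and 4 were lower in PolgD257A, and of the 8 distal and collecting duct markers 4 and 5 were lower and 1, Aqp2, was higher in Polg+/+. The 6 endothelial markers gave 2 lower in Polg+/+, and 2 higher with 2 lower in PolgD257A. The 4 podocyte markers gave 1 higher in PolgD257A alone. None of the 6 T and B cell markers was called by limma in any comparison. Between the genotypes after B-IRI, 5 of 5 loop of Henle and 6 of 8 distal and collecting duct markers were lower in PolgD257A, while 9 of 10 injury, 5 of 6 fibroblast, 4 of 6 endothelial and all 3 tested neutrophil markers were higher. Of the macrophage and monocyte markers 3 were then higher and 1 lower, and of the hepatocyte markers 1 was lower. In the interaction 17 of 25 proximal tubule and 5 of 5 loop of Henle markers were lower. The part of these cell types in the changes was not tested.

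Set against the mean of the 25 markers within each library, the members differed. Kmo fell beyond the markers, by 0.31 log2 in Polg+/+ (adjusted p = 0.00962, exact two-sided permutation test over all relabelings, adjusted over 40 tests) and by 0.29 in PolgD257A (adjusted p = 0.00618), where all 6 B-IRI libraries lay below all 6 sham libraries. Afmid fell beyond them in PolgD257A (by 0.26, adjusted p = 0.00618) and did not pass in Polg+/+ (-0.20, adjusted p = 0.164). Haao (0.04 and -0.09, adjusted p = 0.603 and 0.236 by the exact test) and Acmsd (-0.01 and 0.01, adjusted p = 0.971 and 0.978) did not pass in either genotype, so that no change beyond the markers was detectable for them. Kmo in Polg+/+ missed the threshold when the median of the markers replaced their mean (-0.23, adjusted p = 0.0512, exact permutation test), and Haao in Polg+/+ then passed upwards (0.12, adjusted p = 0.0216).

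The other 6 members rose relative to the markers after B-IRI, in both genotypes. Of these only Kynu, in Polg+/+, was called higher in its own level by limma. The mean log2 value of the markers itself fell, from 14.23 to 13.58 in Polg+/+ and from 14.33 to 12.94 in PolgD257A. A gene with an unchanged level therefore rises on this scale, and the share of all genes that do so was not computed. The rises that follow are on this scale. Kynu rose by 1.43 log2 in Polg+/+ and 1.66 in PolgD257A, Nmnat1 by 0.74 and 1.34, Nadsyn1 by 0.51 and 1.08, Nampt by 0.50 and 1.11, Naprt by 0.45 and 1.04, and Qprt by 0.41 and 0.80. The largest adjusted p among these was 0.0124 (exact permutation test). In PolgD257A every B-IRI library lay above every sham library for all 6. Between the genotypes after B-IRI, Nampt (0.70), Nadsyn1 (0.49), Nmnat1 (0.45) and Naprt (0.44) were higher in PolgD257A relative to the markers, while Haao (-0.17, adjusted p = 0.0393) and Kmo (-0.15, adjusted p = 0.0124) were lower (exact permutation test). In sham, Naprt was lower in PolgD257A by -0.15 on this scale (adjusted p = 0.0124, exact permutation test), which did not pass with the median of the markers (adjusted p = 0.274).

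**Figure D3:**
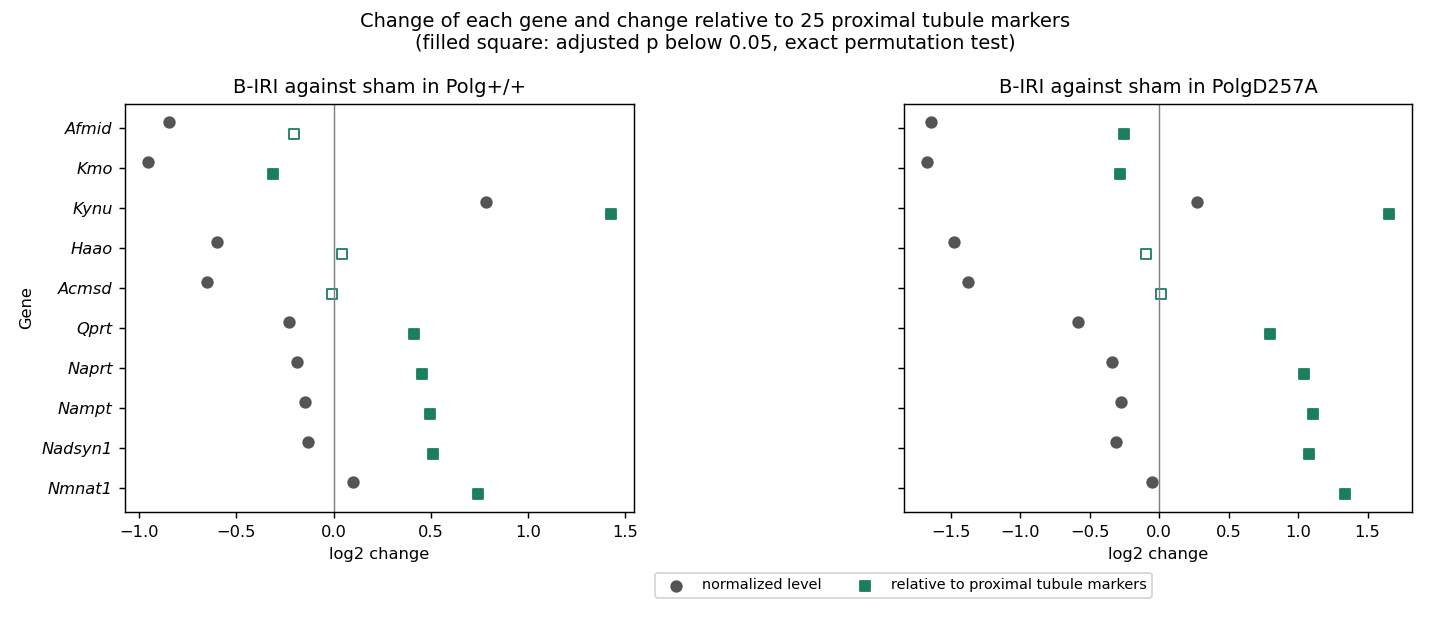
log2 change after B-IRI of each gene (grey circles) and of the gene relative to the mean of 25 proximal tubule markers in the same library (squares, filled where the exact permutation test passed), for Polg+/+ (left) and PolgD257A (right). Kmo stays left of 0 on both measures, Haao and Acmsd move to near 0, and the genes from Qprt to Nmnat1 move to the right of 0.

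Acmsd acts on the product of Haao, and Qprt acts on the quinolinate that forms from that product. The ratio of Acmsd to Qprt counts within a library does not depend on scaling between libraries. The mean log2 ratio of Acmsd to Qprt in Polg+/+ was 0.59 ± 0.26 (SD, n = 6) for sham and 0.16 ± 0.27 for B-IRI, and in PolgD257A it was 0.33 ± 0.20 and -0.46 ± 0.56. These are ratios of counts, not of counts per length. The difference between B-IRI and sham was -0.42 in Polg+/+ and -0.79 in PolgD257A, and that between the genotypes after B-IRI was -0.63, with an adjusted p of 0.0866 for each (exact permutation test, 8 tests). None of the 8 tests of the ratios passed over all libraries. B-IRI PolgD257A replicate 2 had the highest Acmsd to Qprt ratio of its group, 0.40, where the other 5 libraries had -1.08 to -0.12.

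The log2 ratio of Nampt to Qprt, which sets salvage beside synthesis from tryptophan, in Polg+/+ was 0.86 ± 0.13 for sham and 0.94 ± 0.09 for B-IRI, and in PolgD257A it was 1.02 ± 0.12 and 1.33 ± 0.49. It did not pass after B-IRI in Polg+/+ (0.08, adjusted p = 0.234, exact permutation test) or in PolgD257A (0.31, adjusted p = 0.193), nor between the genotypes (0.16 in sham and 0.39 after B-IRI, adjusted p = 0.11 for each). Replicate 2 was lowest of B-IRI PolgD257A at 0.68, and replicate 6 highest at 2.14, where Nampt was at its highest (4416) and Qprt at its lowest (1003). With any single library other than replicate 2 of B-IRI PolgD257A left out, none of the 8 tests of the ratios passed. Without replicate 2 of B-IRI PolgD257A, 5 of the 8 passed. Then the Acmsd to Qprt ratio differed by -0.96 after B-IRI in PolgD257A and by -0.80 between the genotypes after B-IRI (adjusted p = 0.00433 for both, exact permutation test). The difference of -0.42 after B-IRI in Polg+/+ does not involve this library and was unchanged. Its adjusted p became 0.045 (exact permutation test) only through the joint adjustment over the 8 tests. The Nampt to Qprt ratio then differed by 0.44 after B-IRI in PolgD257A and by 0.52 between the genotypes (adjusted p = 0.00433 for both, exact permutation test).

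**Figure D4:**
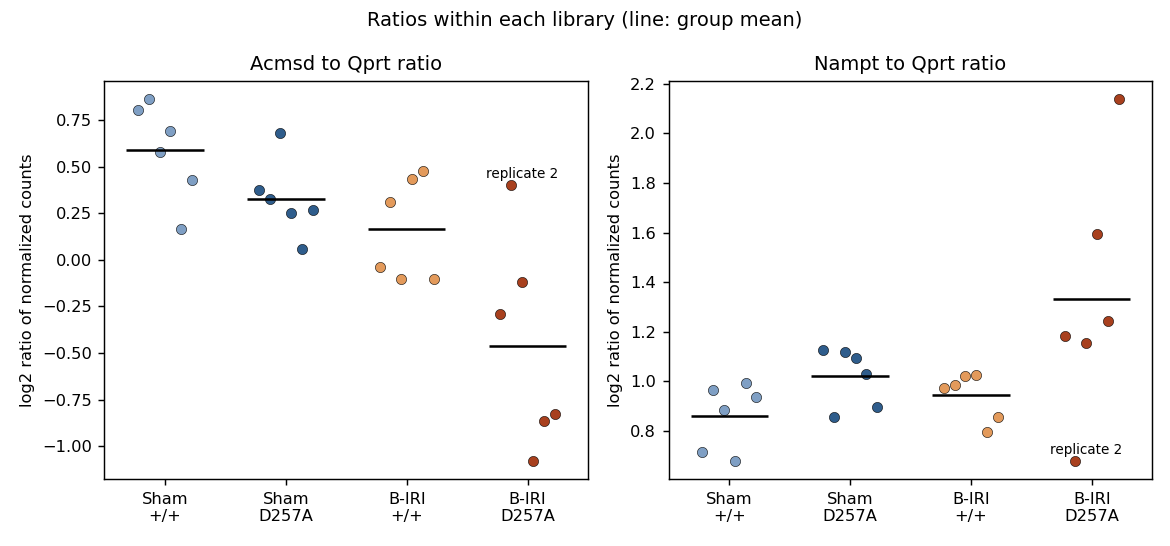
log2 ratio of normalized counts of Acmsd to Qprt (left) and of Nampt to Qprt (right) in the 24 libraries, with 1 point per library and a line at the group mean. B-IRI PolgD257A replicate 2, marked, is the highest of its group in the left panel, at 0.40, and the lowest in the right panel, at 0.68.

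The genes before and around the members mostly fell as well. Of 47 further genes of NAD metabolism, 40 were tested. After B-IRI 21 fell and 7 rose in Polg+/+, 25 fell and 8 rose in PolgD257A, and after B-IRI 19 were lower and 3 higher in PolgD257A than in Polg+/+. Over all genes 19.8% fell and 21.4% rose, 30.3% fell and 30.2% rose, and 15.2% were lower and 14.3% higher, so the counts upwards do not exceed the background. In sham none was called between the genotypes by limma, edgeR or DESeq2, and at an unadjusted p under 0.05 only Aox1 was lower. Their median changes were -0.20 and -0.28 log2 for B-IRI in Polg+/+ and PolgD257A and -0.18 between the genotypes after B-IRI. The first step, the opening of the tryptophan ring, was represented mainly by Ido2. Tdo2 had group means of 3.67 to 5.60 normalized counts and Ido1 of 1.17 to 2.50, so both were below the filter. Ido2 fell from 294 ± 38.6 to 150 ± 31.0 in Polg+/+ (by 0.99 ± 0.14 log2, adjusted p = 4e-06) and from 297 ± 35.0 to 81.6 ± 19.6 in PolgD257A (by 1.88 ± 0.14, adjusted p = 1.5e-11).

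Of the 4 listed transaminases that turn kynurenine to kynurenic acid instead of NAD, 3 fell in both genotypes and 1, Got2, did not pass in either. Got2 was at 6112 ± 200 and 6483 ± 189 normalized counts in sham and B-IRI Polg+/+, and at 6007 ± 198 and 6199 ± 245 in PolgD257A. Aadat, which also acts in lysine breakdown, changed most of the 40, from 9286 ± 681 to 3237 ± 384 normalized counts in Polg+/+ (-1.53 ± 0.12 log2, adjusted p = 3.1e-10) and from 8358 ± 1202 to 1491 ± 410 in PolgD257A (-2.51 ± 0.12, adjusted p = 4.2e-15). Kyat1 fell by 0.40 ± 0.09 and 0.76 ± 0.09 log2, and Kyat3 by 0.32 ± 0.11 and 0.76 ± 0.11. On the path to oxidation after Acmsd, all 4 listed genes fell in both genotypes, among them Aldh8a1, the semialdehyde dehydrogenase (-0.34 ± 0.08 and -0.89 ± 0.08), Gcdh (-0.55 ± 0.07 and -1.08 ± 0.07) and Dhtkd1 (-0.90 ± 0.13 and -1.51 ± 0.13). All 4 also had a negative interaction that passed. Aspdh, an aspartate dehydrogenase homolog, went by -1.03 ± 0.11 and -2.15 ± 0.11, and Slc5a8, a transporter of nicotinate and other monocarboxylates, by -1.13 ± 0.13 and -2.18 ± 0.13.

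Salvage and NADP formation were mixed. Nmnat3, the mitochondrial counterpart of Nmnat1, rose by 0.31 ± 0.07 log2 in Polg+/+ (adjusted p = 0.000875) and by 0.48 ± 0.07 in PolgD257A (adjusted p = 1.55e-06), with no overlap between sham and B-IRI. Nmrk1, the kinase for nicotinamide riboside, fell by 0.39 ± 0.10 log2 in Polg+/+ (adjusted p = 0.00286) and by 0.63 ± 0.10 in PolgD257A (adjusted p = 7.1e-06), while Nmrk2 was listed at 0 in every group. Nadk2, the mitochondrial NAD kinase, fell by 0.31 ± 0.07 and 0.57 ± 0.07 log2. Nadk, the cytosolic one, did not pass (0.07 ± 0.05 and 0.06 ± 0.05, adjusted p = 0.263 and 0.305 by limma). Of 12 NAD-consuming enzymes tested, 4 rose and 4 fell in Polg+/+, and 5 rose and 5 fell in PolgD257A. Over all genes 21.4% rose and 19.8% fell in Polg+/+, and 30.2% and 30.3% in PolgD257A. The list held Parp1, Parp2 and Sirt6 among those that rose in both genotypes and Sirt1, Sirt3, Sirt4 and Sirt7 among those that fell in both. These names, and Nmnat3, Aox1 and Slc7a5, were chosen after their values were seen. The interaction passed for 12 of the 40 downwards, and upwards for Aox1 and Slc7a5 alone. Over all genes it passed downwards for 9.08% and upwards for 6.87%, so the count upwards does not exceed the background. The count upwards was 0 without a filter or after quantile normalization, and with 1 library left out it stayed at 2 only for sham Polg+/+ replicates 4 and 6, sham PolgD257A replicates 2 and 3, and B-IRI PolgD257A replicates 2 and 6, and was otherwise 0 or 1. Slc7a5 is a subunit of a transporter of large neutral amino acids that carries tryptophan and kynurenine, and it rose by 0.81 ± 0.13 log2 in Polg+/+ and 1.38 ± 0.13 in PolgD257A.

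**Figure D5:**
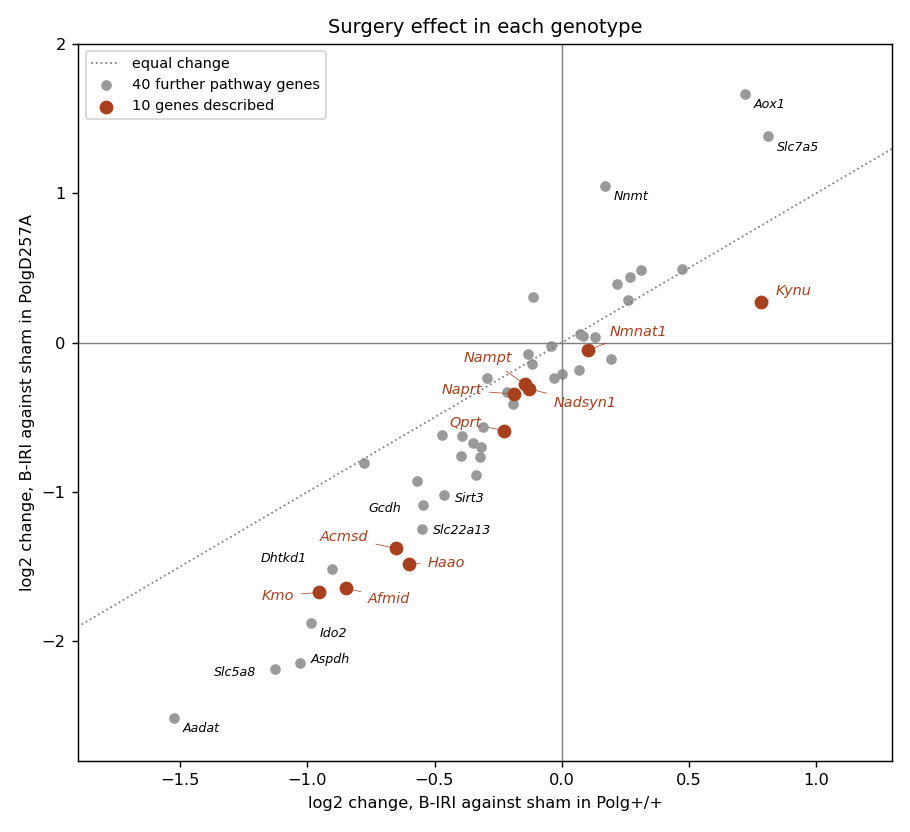
log2 change after B-IRI in Polg+/+ (horizontal) and in PolgD257A (vertical) for the 10 genes described (red) and 40 further NAD pathway genes (grey), with a dotted line of equal change. Afmid, Kmo, Haao and Acmsd sit in the lower left, near Ido2 and Dhtkd1, Aadat lies lowest at -1.53 and -2.51, and Kynu is to the right of the line.

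Among 10758 other genes averaging 100 normalized counts or more, the patterns nearest to Kmo over the 24 libraries were those of Acsm5, Adhfe1 and Ugt3a2, with root mean square differences of 0.13, 0.13 and 0.15 log2. For Kynu, the member with the largest rise, the closest were Gsta4, Uap1l1 and Prom1 at 0.41, 0.42 and 0.42. These differences include the spread among libraries, which was wider for Kynu than for Kmo. In sham Polg+/+ the SD was 50.4% of the mean for Kynu and 8.4% for Kmo. Injury differed among the 6 B-IRI Polg+/+ libraries, with Havcr1 from 5441 to 24890 normalized counts. The correlation of the member with Havcr1 was r = -0.83 and rho = -0.89 for Kmo, r = -0.84 and rho = -0.94 for Kynu, and r = -0.79 and rho = -0.89 for Haao. The unadjusted p values were 0.0556 and 0.0333 for Kmo, 0.0486 and 0.0167 for Kynu, and 0.075 and 0.0333 for Haao (exact permutation tests of r and rho). Without the 2 libraries farthest from the median of Havcr1, r was -0.97, -0.83 and -0.90. None of 20 such relations passed, since the smallest adjusted p was 0.5 for r and 0.222 for rho (exact permutation test over 720 pairings). In B-IRI PolgD257A r was -0.14 for Kmo, 0.34 for Kynu and -0.56 for Haao, again with no relation past the threshold, and the libraries differ little there, from 25920 to 36060 normalized counts of Havcr1.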

How the data were processed

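RNA of 24 mouse kidneys was sequenced after extraction with an RNeasy kit and library preparation from 2 µg of RNA with NEBNext Ultra II, per the labels' protocols. The authors' tools were FastQC, STAR, SAMtools, featureCounts and DESeq2 with GRCm38.p6, per the submitters' processing notes. The sources used here do not give versions or the strandedness of counting. The deposited signal is a table of gene counts that the authors divided by 1 size factor per library (0.74 to 1.315), and 100% of its values came out as whole reads within 0.001 when multiplied back. The deposited table of the authors' comparison gives a log2 change and, as its score, the standard error the authors computed for it. In place of a p-value the deposited table gives an s-value, which the authors computed before deposit as the chance of a wrong sign. Of these values only log2 changes are reported here. Column names with Ctrl, Mut and SurgBIR were read as Polg+/+, PolgD257A and B-IRI. The labels call the libraries of a group biological replicates.

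Genes reaching 10 normalized counts in 6 or more libraries (17430 of 55416 gene IDs) were fitted with limma 3.58.1 in R 4.3.3 on log2(normalized count + 1), with 1 mean per group and all 24 libraries. p-values were adjusted by Benjamini-Hochberg within each of the comparisons at a threshold of 0.05. Single ratios, values relative to markers and correlations were tested with exact two-sided permutation tests in Python 3.11.15 with NumPy 2.4.6. Exon lengths and positions came from GENCODE M21, and promoter windows from RefSeq, of which 1 is not reported here. edgeR 4.0.16 and DESeq2 1.42.0 on the recovered reads, other pseudocounts (0.5 and 5), filters (none and 50), TMM and quantile scaling, library weights, a replicate block, only the libraries compared, and leaving out each library were alternatives. Thinning to 16689284 reads was chosen after seeing the data. The fits were tested on simulated data.

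The members and the lists were chosen with earlier results of these data known. Lists comprised 47 further genes of NAD metabolism and markers of proximal tubule, tubule injury, loop of Henle, distal and collecting duct, macrophages and monocytes, neutrophils, T and B cells, endothelium, fibroblasts, podocytes and hepatocytes. Named were all members, the 6 further genes ranked first by p after B-IRI, at most 6 ranked first in the genotype comparisons or the interaction, genes of the steps next to a member, and the 3 genes nearest in pattern to the member with the largest rise and to that with the largest fall. Nnt was left out because 2 gene IDs carry its symbol.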

Additional observations from a re-analysis of the deposited data

Results flagged for a closer look

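Of 108 groups of 6 libraries, 10 had a lowest or highest library far from the rest by Dixon's criterion, which chance meets in about 1 of 20 groups. The 108 include the groups of Nmrk2, which was at 0 in every library and could not be tested. Sham Polg+/+ replicate 6 accounted for 4 of them, with Afmid at 322.8 normalized counts (nearest library 559.5), Slc5a8 at 5378 (nearest 6905), Nadk at 3539 (nearest 4141) and Tdo2 at 7.685 (nearest 3.534). In sham PolgD257A, Afmid was at 685.8 in replicate 3 (nearest 591.6) and Ido2 at 229.4 in replicate 2 (nearest 298.7). In B-IRI Polg+/+ replicate 2, Nmnat1 was at 376.7 (nearest 421.9). In B-IRI PolgD257A, Aadat was at 2279 in replicate 3 (nearest 1563), Aldh8a1 at 3843 in replicate 1 (nearest 4972) and Nmrk1 at 2265 in replicate 2 (nearest 1729).

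The B-IRI effect differed between the genotypes by limma's interaction test for 11 named genes, each falling further in PolgD257A. Among the members the interaction was -0.88 log2 for Haao (adjusted p = 0.000211), -0.80 for Afmid (0.00328), -0.72 for Kmo (0.000536) and -0.36 for Qprt (0.0436). Among the further genes it was -1.12 for Aspdh (9.21e-05), -1.06 for Slc5a8 (0.000646), -0.99 for Aadat (0.000472), -0.89 for Ido2 (0.00364), -0.61 for Dhtkd1 (0.0208), -0.55 for Aldh8a1 (0.00138) and -0.54 for Gcdh (0.000629).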

How the results depend on the processing

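No result reversed its direction past the threshold under any alternative run. Of the single-gene values, 619 kept their side of the threshold under the settings other than leaving out a library, 16 newly passed and 15 no longer passed. With 1 library left out, 2098 kept it, 17 newly passed and 45 no longer passed. The cause of these moves was not tested. The count of further pathway genes with a positive interaction was 2, and it was 0 without a filter, 0 after quantile normalization, 1 with the replicate block, and 0 to 2 with 1 library left out. The count of members lower relative to proximal tubule markers after B-IRI in Polg+/+ was 1, 0 with the median of the markers, and 1 to 2 with 1 library left out (2 without sham Polg+/+ replicate 6). Between the genotypes in sham it was 1, 0 with the median, and 1 to 3 with 1 library left out, above 1 without sham Polg+/+ replicate 2 or 5 or sham PolgD257A replicate 1. Between the genotypes after B-IRI it was 2, and 1 to 2 with 1 library left out. With 1 library left out, the Acmsd to Qprt log2 ratio differed by -0.51 to -0.37 after B-IRI in Polg+/+, by -0.96 to -0.67 in PolgD257A and by -0.80 to -0.50 between the genotypes after B-IRI. The Nampt to Qprt log2 ratio differed by 0.15 to 0.44 after B-IRI in PolgD257A and by 0.23 to 0.52 between the genotypes. Libraries that share a replicate number did not deviate together (r from -0.326 to 0.174 over 36 pairs, with 2 pairs over 0.1, and 3 of 24 libraries correlating best with their own number). With the replicate block, Qprt missed the threshold after B-IRI in Polg+/+ (-0.23, adjusted p = 0.0537 by limma) and in the interaction (-0.36, adjusted p = 0.0677). All 10 members passed the filter on low values, whereas Tdo2 and Ido1 were too low to test.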
